A study of Mus musculus with 6 samples.

Results

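The forkhead genes encode transcription factors that share a winged-helix DNA-binding domain, and 44 of the 55414 genes listed in the counts belong to this family. Members were taken by symbol, as protein-coding genes named Fox with a class letter from a to s and a number, a rule that uses no measured value. The libraries came from cells of mouse embryos at E10.5 that carried *Pdx1-Cre* and a *Rosa26* LSL-tdTomato reporter, so that tdTomato marked cells in which Cre had been active and their descendants. These cells were sorted from the trunk. The WT group had 3 libraries from embryos with *mir-302* and the KO group had 3 from embryos without *mir-302*, both from crosses between *mir-302*+/- parents. The deletion was present in all tissues of the embryo. The label of the cells as pancreatic progenitors rests on a *Pdx1* driver that is also active in neighbouring duodenum and stomach endoderm, and no antibody for a pancreatic protein was part of the mRNA sort as described.

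Forkhead factors are best known as markers and determinants of germ layer and organ. Foxa factors open compacted chromatin in the endoderm and are needed for foregut, liver and pancreas development, with *Foxa1* and *Foxa2* acting upstream of *Pdx1*. Foxf and Foxc factors belong to mesoderm, with *Foxf1* marking the splanchnic mesenchyme around the gut under Hedgehog control, Foxo factors are held in the cytoplasm by insulin and AKT signalling, and Foxm1 drives genes of mitosis.

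The miR-302 RNAs of the deleted cluster share the run AAGUGCU, and they are shown because the KO embryos lack them. The sequences are those of RefSeq, 5′ to 3′, with bases 2 to 8 (the seed) in capitals. An entry for *miR-302a-3p* was not used here.
miR-302b-3p: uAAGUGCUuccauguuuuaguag
miR-302d-3p: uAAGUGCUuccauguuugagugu
miR-302c-3p: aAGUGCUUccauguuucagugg
In the last of these the shared run starts at base 1, so that its seed is AGUGCUU.

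Matches to AAGUGCU were searched on the sense strand of the longest 3′UTR that GENCODE M21 gives for a gene, as AGCACTTA (8mer), AGCACTT (7mer-m8) or GCACTTA (7mer-A1), each site counted once under the longest form. A match was present in 10 of the 43 members with an annotated 3′UTR (23.3%). Among members that passed the filter on low counts it was present in 5 of 17 (29.4%), beside 20.6% of the 13763 protein-coding genes tested that have a 3′UTR. The members with a match were *Foxf2*, *Foxi1*, *Foxi2*, *Foxj2*, *Foxj3*, *Foxk1*, *Foxk2*, *Foxl2*, *Foxn4* and *Foxo1*. The sites of *Foxo1* and *Foxj2* are shown because these are the members with a match and the smallest p-values in the comparison of KO with WT, and that of *Foxj3* because it is a member with a match and a high level. Capitals mark the match.
Foxo1 site 1: gcaacagcggcAGCACTTtcctgtgcag
Foxo1 site 2: ttcagtcatcaAGCACTTgagttagacc
Foxj2 site: gttcactaaagAGCACTTtatttctttg
Foxj3 site: atgcatggatgGCACTTAaaataaatat
A match is a run of letters in an annotated 3′UTR, and pairing with miR-302 was not measured.

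The libraries held 17352498 to 26634523 counts, and 3 counts, taken as the floor, were worth 0.113 to 0.173 CPM, the count scaled to library size (with TMM factors where levels are given). The genotype labels could not be checked on the deleted cluster. No library had a count for *Mir302a*, *Mir302b*, *Mir302c* or *Mir367*, and *Mir302d* had 2 counts, in KO replicate 3, in a protocol that copies polyadenylated RNA. Values are given in the order of replicates 1, 2 and 3 of a genotype, and means with SD over its 3 libraries. Markers of endodermal epithelium were high in every library, with the 8 epithelial markers summing to 4129 to 4955 CPM and the 10 pancreatic progenitor markers to 672 to 899 CPM. *Pdx1* itself was at 73.0 to 107 CPM. Other cells were present to different extents. Summed over 12 mesenchyme markers, the level was 522, 205 and 1112 CPM in WT and 1071, 88.5 and 1081 CPM in KO, with 7 of the 12 at 0 in KO replicate 2. Summed over 8 blood markers, it was 13432 CPM in WT replicate 3, 5303 CPM in KO replicate 1, 288 CPM in KO replicate 3 and 1.02 to 3.18 CPM in the other libraries. The 7 liver markers summed to 634 to 2009 CPM and the 9 endocrine markers to 1078 to 5593 CPM. Endothelial markers summed to 12.6 to 42.7 CPM, highest in KO replicate 1, neural markers to 29.5 to 52.1 CPM and notochord markers to 5.87 to 9.65 CPM, with *Sox1* and *Noto* at 0 throughout. The sum of pancreatic progenitor markers was 672 to 778 CPM in WT and 792 to 899 CPM in KO, and that of the 8 gut endoderm markers was 173 to 209.6 CPM in WT and 236 to 278 CPM in KO, so both separated the genotypes. The part of these differences in those of forkhead genes was not tested. In bulk libraries, fewer cells of a type and less RNA per cell cannot be told apart.

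Of the 44 members, 37 had at least 1 count. *Foxe1*, *Foxe3*, *Foxi1*, *Foxi3*, *Foxo6*, *Foxr1* and *Foxs1* had 0 counts in every library. A further 20 had counts but did not pass edgeR's filter on low counts, of which 13 had at most 10 counts in any library. The remaining 17 were tested, and each of the 17 was above the floor in all 6 libraries. Libraries detected 24 to 32 members each. Below the filter, several members had their counts in 1 or 2 libraries. Named here after their values were seen, *Foxi2* had 72 of its counts in KO replicate 3 and 1 in KO replicate 1, and *Foxn1*, the thymic epithelial factor, had 26 in KO replicate 2 and at most 6 elsewhere. *Foxh1*, a cofactor of Nodal signalling, had 53 in WT replicate 3 and 28 in KO replicate 1, the libraries with the most blood RNA, and 0 to 7 in the others. *Foxj1*, *Foxq1* and *Foxr2* had at most 25 counts in any library. These counts give no stable comparison of the genotypes.

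**Figure D1:**
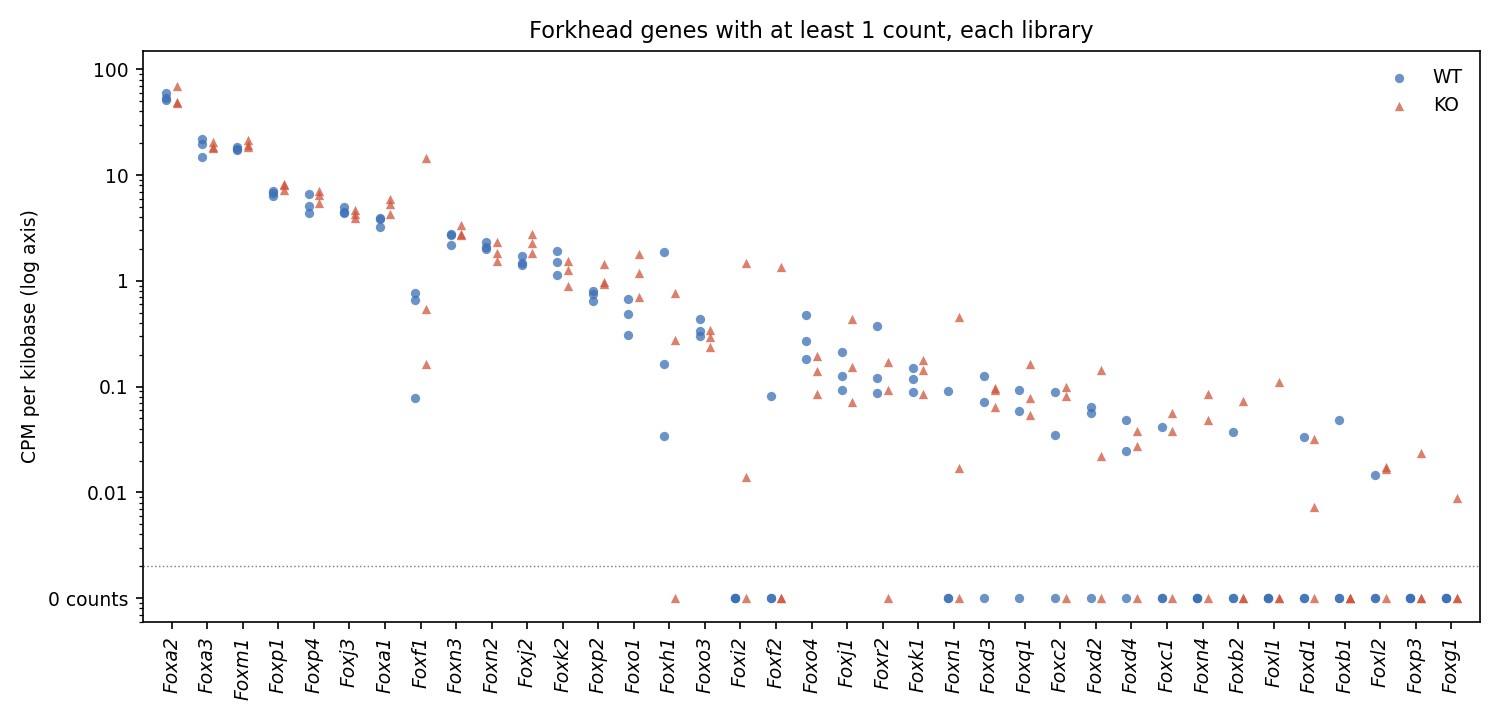
CPM per kilobase of merged exons (log axis) of the 37 forkhead genes with at least 1 count, ordered by their mean over 6 libraries. Circles are WT libraries and triangles KO libraries, and points under the dotted line are libraries with 0 counts. *Foxa2* was the highest member in every library, and *Foxf1* had 1 KO library far above the other 5 points.

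Compared per kilobase of exons, with the annotated exons of all isoforms of a gene merged, the family was led by *Foxa2*. *Foxa2* was at 55.3 CPM per kilobase as a mean over the 6 libraries, with a range of 48.2 to 70.2. *Foxa3* followed at 18.9 (14.9 to 22.0) and *Foxm1* at 18.8 (17.2 to 21.4), and these ranges overlapped each other but not that of *Foxa2*. *Foxp1* was at 7.31 CPM per kilobase, *Foxp4* at 5.84, *Foxj3* at 4.48 and *Foxa1* at 4.44, and the ranges of *Foxp4*, *Foxj3* and *Foxa1* overlapped. *Foxf1* came next by its mean of 2.80, but its range of 0.078 to 14.6 was set by 1 library. *Foxn3* was at 2.75 and *Foxn2* at 2.03 CPM per kilobase. By this measure the 3 Foxa genes held places 1, 2 and 7 of the family. Without division by length, *Foxm1* averaged 103 CPM in WT and 113 in KO, and *Foxp1* 93.2 and 108. *Foxa3* averaged 38.4 and 38.8 CPM.

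*Foxa2*, which is required for endoderm formation and for *Pdx1* enhancer activity, was at 122, 141 and 127 CPM in WT and at 115, 166 and 114 CPM in KO. The genotypes overlapped, with the highest value in KO replicate 2 and the lowest in KO replicate 3. The means of 130.2 ± 10.001 and 132.04 ± 29.8 CPM gave a log2 fold change of 0.02 (standard error 0.16, edgeR's quasi-likelihood test, adjusted p = 0.984). *Foxa3*, the Foxa member known mainly from liver and gut, was at 39.96, 44.9 and 30.3 CPM in WT and at 36.8, 37.7 and 41.8 CPM in KO. The KO libraries lay inside the WT range, and the log2 fold change was 0.01 (standard error 0.17, edgeR, adjusted p = 0.989).

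*Foxa1*, which shares many targets with *Foxa2*, was at 10.7, 13.1 and 12.7 CPM in WT and at 19.9, 17.9 and 14.3 CPM in KO. All KO libraries were above all WT libraries, with KO replicate 3 closest to WT. The means of 12.2 ± 1.29 and 17.4 ± 2.80 CPM differed by a log2 fold change of 0.51 (standard error 0.18), with an adjusted p of 0.339 by edgeR and 0.160 by DESeq2, so the gene was not called by either. The richest 200 bases of its transcript are 87% GC. Fitted with offsets for that property, a DESeq2 model added after the data were seen, the log2 fold change was 0.06 (adjusted p = 0.994). Without the offsets DESeq2 gave 0.54. Tested protein-coding genes at 85% GC or more had a median of 0.053 in edgeR, so the offsets took more from *Foxa1* than that median.

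The mesenchymal members were low in 5 of the 6 libraries. *Foxf1* was at 0.188, 1.84 and 1.60 CPM in WT and at 35.2, 0.398 and 1.30 CPM in KO. KO replicate 1 stood apart, and the other KO libraries lay inside the WT range. The log2 fold change over all libraries was 3.36 with a standard error of 1.57 (edgeR, adjusted p = 0.530), and DESeq2 gave no p-value for this gene. Without KO replicate 1 it was -0.49. *Foxf2*, the paralogue of *Foxf1* in gut mesenchyme, had 85 counts in KO replicate 1, 4 in WT replicate 3 and 0 in the other 4 libraries. *Foxc1* and *Foxc2*, which act in paraxial and vascular mesoderm, had at most 6 counts in any library and 0 in WT replicate 2 and KO replicate 2.

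Genes next to *Foxf1* were read in the same library. *Fendrr*, a long non-coding RNA transcribed from the *Foxf1* promoter region in the opposite direction, was at 10.98 CPM in KO replicate 1 and at 1.45 to 2.68 CPM in the others. *Foxl1*, a gene of subepithelial gut mesenchyme that lies with *Foxc2* beside *Foxf1* in the annotation and is named here after its values were seen, had 8 counts in KO replicate 1 and 0 elsewhere. *Barx1*, a factor of stomach mesenchyme, was at 2.20 CPM in KO replicate 1 and at 0 to 0.242 CPM in the other libraries. Of the other mesenchyme markers, *Col3a1*, *Twist1*, *Nkx3-2* and *Osr1* were also highest in KO replicate 1. *Col1a2*, *Pdgfra*, *Tcf21* and *Hand2* were highest in WT replicate 3, and *Col1a1*, *Pdgfrb* and *Prrx1* in KO replicate 3. *Col3a1* was at 202, 62.0 and 411 CPM in WT and at 517, 0 and 432 CPM in KO. Thus WT replicate 3 and KO replicate 3 had high *Col3a1* with *Foxf1* at 1.60 and 1.30 CPM. Some markers of other lineages, named here after their values were seen, also stood out in KO replicate 1. *Kdr*, an endothelial receptor, was at 11.3 CPM there and at 0 to 1.23 CPM elsewhere. Of the other endothelial markers, *Cdh5*, *Tek*, *Tie1* and *Emcn* were highest there too, while *Pecam1*, *Esam* and *Egfl7* were highest in other libraries. *Nkx2-1*, a factor of lung and thyroid endoderm, had 47 counts there and at most 1 elsewhere. Of the other gut endoderm markers, *Cdx1*, *Sox2* and *Shh* were highest there, and *Cdx2*, *Ihh*, *Hnf4a* and *Vil1* in other libraries. Blood markers were high in KO replicate 1 and WT replicate 3. The part of these cells in the *Foxf1* value was not tested.

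**Figure D2:**
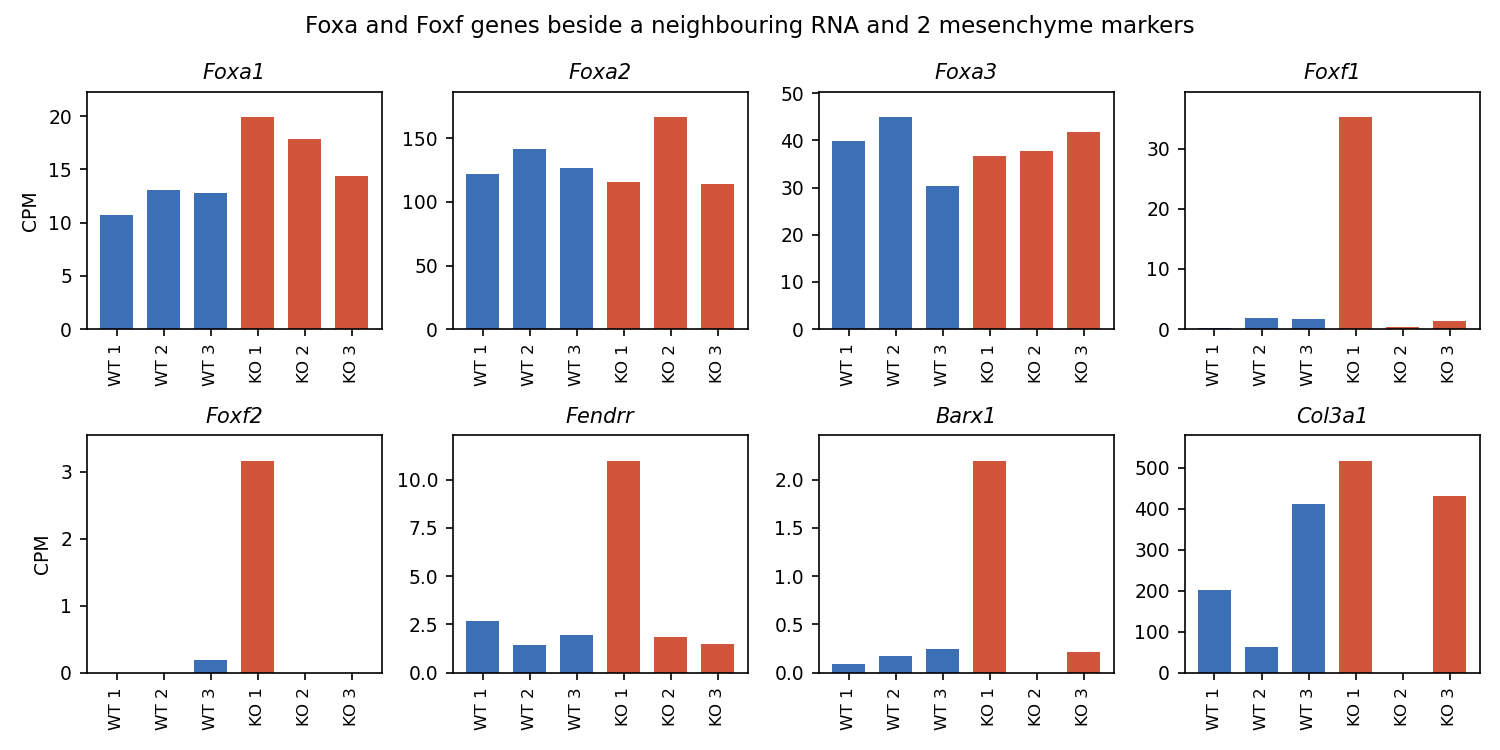
CPM of *Foxa1*, *Foxa2*, *Foxa3*, *Foxf1*, *Foxf2*, the neighbouring RNA *Fendrr* and the mesenchyme markers *Barx1* and *Col3a1* in each of the 6 libraries, blue for WT and red for KO. *Foxf1*, *Foxf2*, *Fendrr* and *Barx1* peak in KO replicate 1, while *Col3a1* is also high in WT replicate 3 and KO replicate 3.

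Endodermal and mesenchymal members were set against each other within each library, as summed CPM per kilobase of the 3 Foxa genes over that of *Foxf1*, *Foxf2*, *Foxc1* and *Foxc2*. The Foxa sum varied little, from 72.2 to 94.1 CPM per kilobase. The mesenchymal sum was 0.112, 0.762 and 0.875 in WT and 16.04, 0.165 and 0.696 in KO. The Foxa sum was thus 662, 112 and 82.6 times the mesenchymal sum in WT, and 4.53, 571 and 105 times in KO. The highest ratios, in WT replicate 1 and KO replicate 2, rest on mesenchymal sums of 6 and 7 counts, so that neither their size nor their order is firm, whereas the sum in KO replicate 1 was 1043 counts and those of the other libraries 33 to 47. *Foxf1* made up 66.7 to 100% of the mesenchymal CPM.

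The comparison of KO with WT asked whether loss of *mir-302* went with a change of forkhead mRNA. With edgeR's quasi-likelihood test, adjusted by Benjamini-Hochberg over all 16353 genes, 0 of the 17 tested members were called at 0.05, where the background over all genes was also 0%. The lowest adjusted p among members was 0.268. An unadjusted p under 0.05 was reached by 5 members (29.4%), all higher in KO, beside 10.4% of all tested genes, of which 6.42% were higher and 3.97% lower in KO. DESeq2 gave an adjusted p to 14 members and called 1, *Foxo1*, beside 4.87% of the genes it tested, 4.22% higher in KO and 0.648% lower. DESeq2 with GC offsets called 0 of 14 members, beside 3.35% of all genes. At an unadjusted p under 0.05 that fit had 3 members, *Foxo1* and *Foxp2* higher in KO and *Foxk2* lower. The share of all genes at that threshold was not taken for this fit, so the 3 members have no background. For 6 members (35.3%) the lowest KO library was above the highest WT library, and for 0 members the reverse held, beside 16.3% of all genes, 8.35% above and 7.97% below. In total 12 members had a log2 fold change above 0 and 5 below, where 45.6% of all genes were above 0. The median log2 fold change was 0.20 over the tested members and -0.02 over all tested genes.

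**Figure D3:**
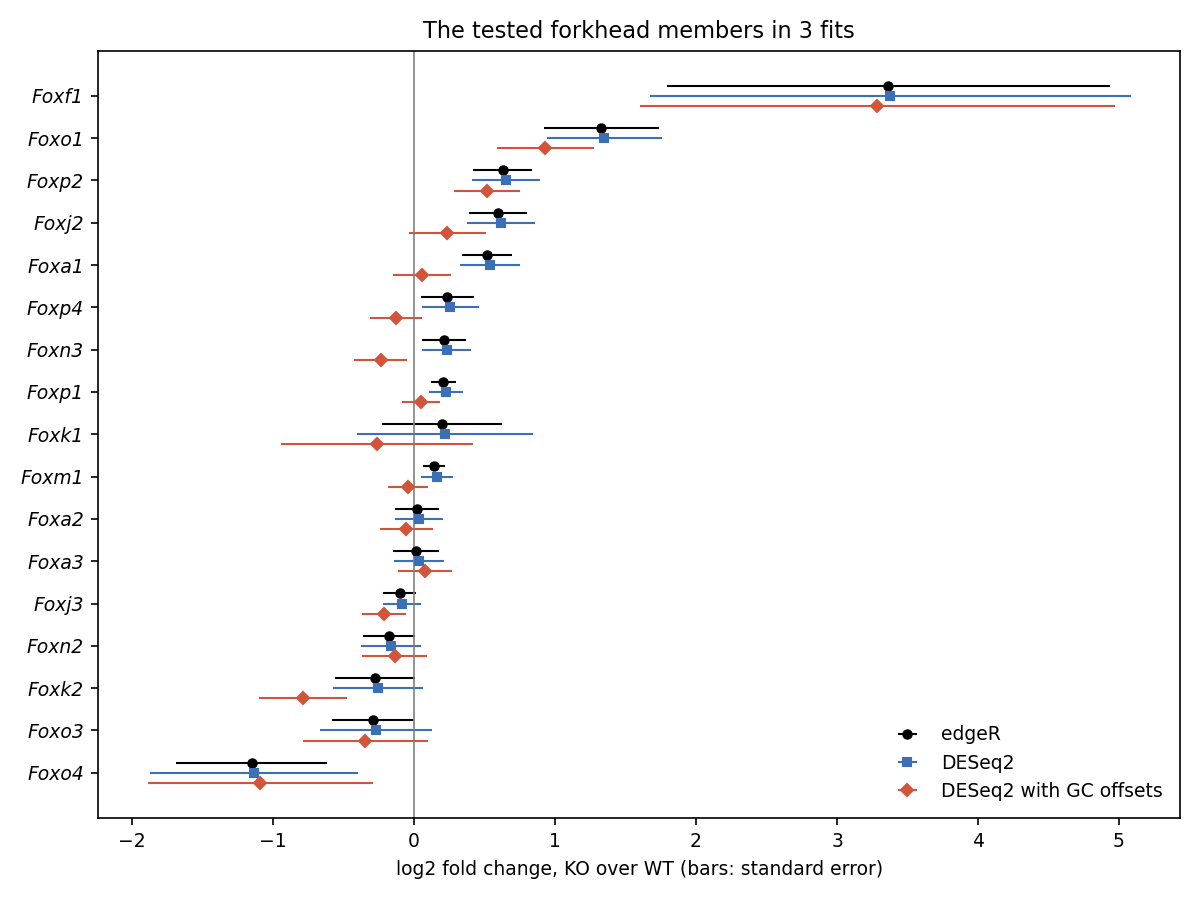
log2 fold change of KO over WT for the 17 tested forkhead members with standard errors, from edgeR (black), DESeq2 (blue) and DESeq2 with offsets for GC-rich stretches (red). *Foxo1*, *Foxp2*, *Foxj2* and *Foxa1* lie above 0 in all 3 fits, with smaller values under the offsets, and *Foxf1* has the longest error bars.

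*Foxo1*, the nuclear effector of low insulin signalling, had the smallest p of the family. It was at 2.68, 5.86 and 4.22 CPM in WT and at 15.4, 10.4 and 6.14 CPM in KO. The genotypes did not overlap, although KO replicate 3 was close to WT replicate 2. The means were 4.25 ± 1.59 and 10.6 ± 4.64 CPM, and the log2 fold change was 1.33 (standard error 0.41, edgeR, adjusted p = 0.268). DESeq2 gave 1.35 with an adjusted p of 0.0239. With GC offsets the log2 fold change was 0.93 and the adjusted p 0.139, so the call by DESeq2 was lost. Leaving out 1 library at a time, edgeR gave 0.97 to 1.65. The *Foxo1* 3′UTR holds both sites shown above, and an antisense gene over *Foxo1*, *Gm20402*, had 0 counts.

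*Foxp2*, a repressor known from lung and brain, was at 10.495, 12.2 and 12.99 CPM in WT and at 23.7, 16.04 and 15.3 CPM in KO. Every KO library exceeded every WT library, with KO replicate 1 highest. The log2 fold change was 0.63 (standard error 0.21, edgeR, adjusted p = 0.321) and 0.52 with GC offsets in DESeq2, and without KO replicate 1 edgeR gave 0.41. *Foxj2*, a widely expressed member with 1 seed match, was at 7.81, 7.48 and 9.16 CPM in WT and at 12.2, 9.90 and 14.9 CPM in KO. Its genotypes did not overlap either, and the gap between WT replicate 3 and KO replicate 2 was small beside the spread in KO. The log2 fold change was 0.60 (standard error 0.20, edgeR, adjusted p = 0.335) and 0.24 with GC offsets. An antisense gene over part of *Foxj2*, *Gm26826*, was at most at 0.388 CPM in WT and at 0 in KO.

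**Figure D4:**
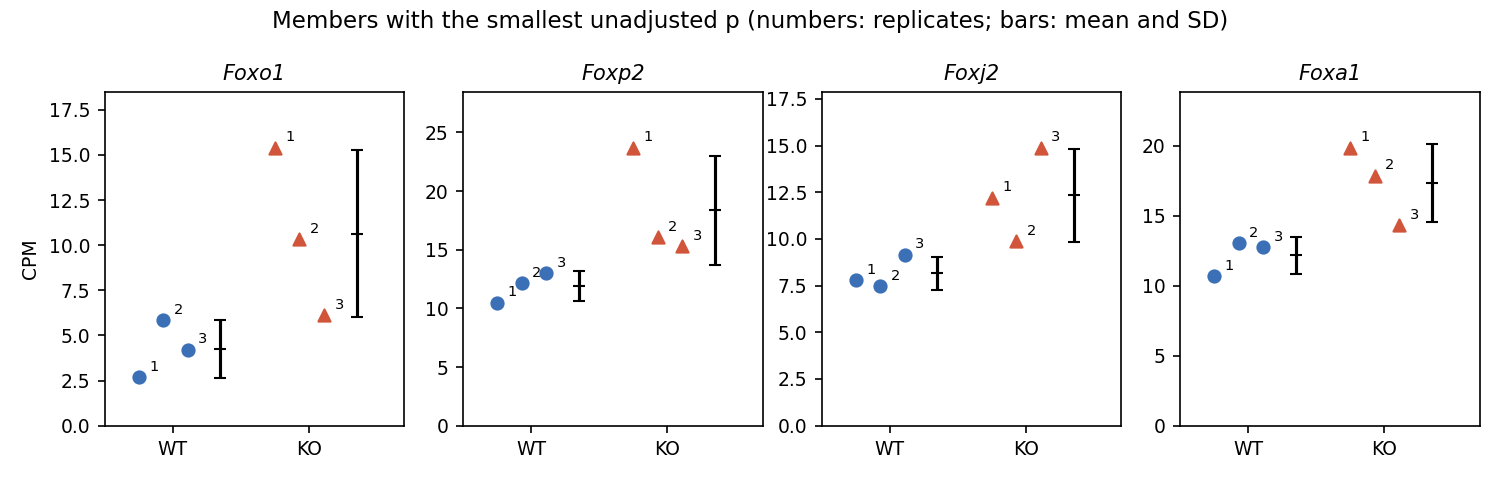
CPM of *Foxo1*, *Foxp2*, *Foxj2* and *Foxa1* in each library, numbered by replicate, circles for WT and triangles for KO, with the mean and SD of each genotype to the right of its points. In all 4 genes the lowest KO library lies above the highest WT library, for *Foxo1* by the step from 5.86 to 6.14 CPM.

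*Foxp1*, the Foxp member with the highest level here, was at 87.4, 93.997 and 98.2 CPM in WT and at 113, 98.6 and 111 CPM in KO. The genotypes were separated by less than 1 CPM, between WT replicate 3 and KO replicate 2, and the log2 fold change was 0.21 (standard error 0.09, edgeR, adjusted p = 0.465). The annotation places *Gm20696*, at 0.223 to 1.53 CPM, over part of *Foxp1* on the same strand. *Foxm1*, the driver of mitotic genes, was at 99.1, 102 and 107.2 CPM in WT and at 110.3, 107.2 and 122.9 CPM in KO. KO replicate 2 exceeded WT replicate 3 by less than the spread in either genotype, and the log2 fold change was 0.14 (standard error 0.08, edgeR, adjusted p = 0.626).

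*Foxo4*, a second insulin-regulated member, was at 1.65, 0.948 and 0.630 CPM in WT and at 0.298, 0.683 and 0.489 CPM in KO. Its genotypes overlapped, and the log2 fold change of -1.15 had a standard error of 0.53 (edgeR, adjusted p = 0.528) and was -0.70 without WT replicate 1. The other named members were within 0.24 of 0 on the log2 scale. *Foxp4* was at 0.24, *Foxn3*, a checkpoint repressor, at 0.21, *Foxj3* at -0.10 and *Foxn2* at -0.18, with edgeR adjusted p-values from 0.748 to 0.861 and overlapping genotypes in each. The 3 tested members outside the naming rule, *Foxk1*, *Foxk2* and *Foxo3*, had log2 fold changes of 0.20, -0.28 and -0.29, and their genotypes overlapped too. With GC offsets in DESeq2 they were at -0.26, -0.79 and -0.35, so that *Foxk1* turned direction and *Foxk2* moved further from 0 (adjusted p = 0.205). *Foxk2*, like *Foxa1*, is above 85% GC, where the offsets moved it by more than the median of 0.053 over tested genes.

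WT replicate 2 and KO replicate 1 share the first part of their library codes, whose meaning the labels do not state. Between these 2 libraries alone, the log2 difference of KO less WT was 1.39 for *Foxo1*, 0.96 for *Foxp2*, 0.71 for *Foxj2*, 0.61 for *Foxa1* and 4.26 for *Foxf1*, and -0.30 for *Foxa2*. There is no test within this pair, and the other codes hold 1 library each.

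The forkhead transcripts are rich in GC. A run of 200 bases at 75% GC or more occurred in 29 of the 44 members (65.9%) and in 14 of the 17 tested (82.4%), beside 26.3% of the 13839 tested protein-coding genes with a transcript. At 70% GC or more, the shares were 79.5%, 88.2% and 46.2%. The tested members with such a stretch had a median log2 fold change of 0.21 (n = 14) and the 3 without, *Foxa3*, *Foxn2* and *Foxo4*, one of -0.18. Over all tested protein-coding genes the medians were 0.13 with a stretch and -0.04 without. Those whose richest stretch held 80 to 85% GC had a median of 0.46. *Foxo1* at 82.5%, *Foxj2* at 81.5%, *Foxp4* at 82% and *Foxk1* at 84.5% lie in that range. Genes at 85% or more had a median of 0.053, and *Foxa1* at 87%, *Foxn3* at 86% and *Foxk2* at 87.5% lie there. The offsets lowered the DESeq2 value of each of these members by more than that edgeR median. *Foxa1* went from 0.54 to 0.06, *Foxn3* from 0.23 to -0.24 and *Foxk2* from -0.26 to -0.79. With GC offsets the median of the members was -0.055. Tested members with a seed match had a median of 0.20 (n = 5) and those without 0.17 (n = 12). The part of GC content in these differences was not tested beyond these values.

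**Figure D5:**
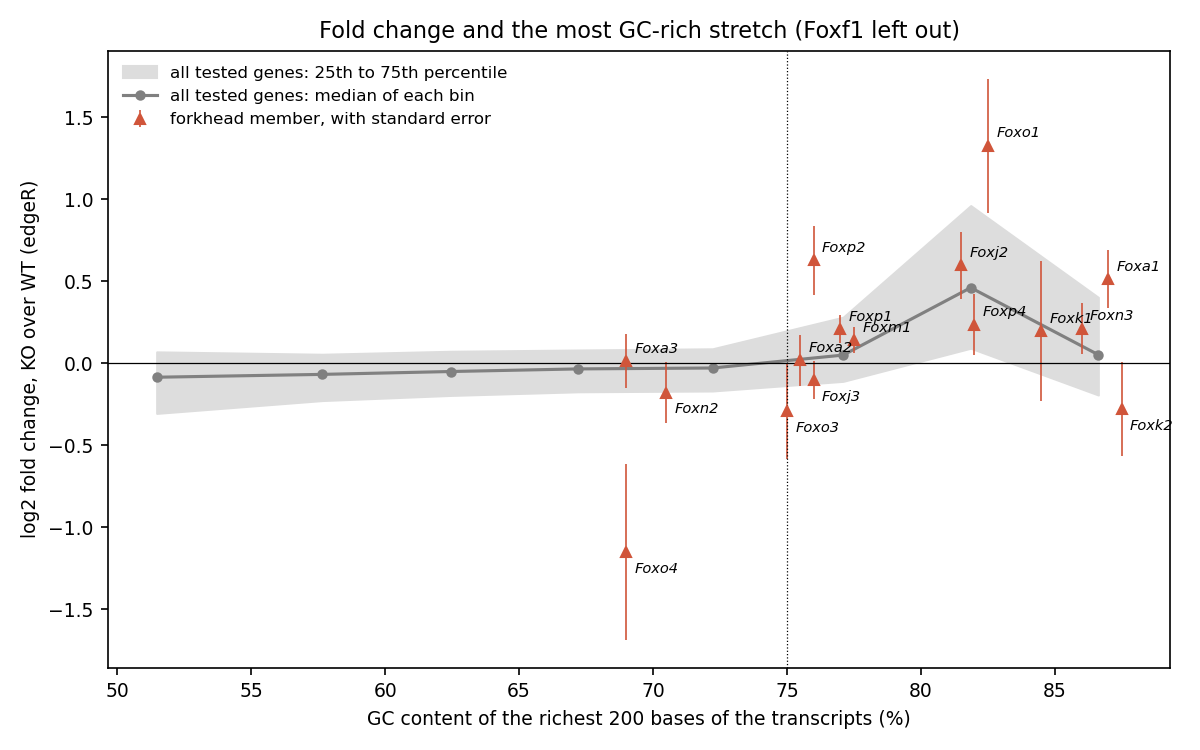
edgeR log2 fold change of KO over WT (vertical axis, bars are standard errors) against the GC content of the richest 200 bases of the transcripts (horizontal axis) for 16 tested members, with *Foxf1* left out to keep the scale. The grey line and band give the median and the middle 50% of all tested protein-coding genes in bins. They peak at a median of 0.46 between 80 and 85% GC, and *Foxo1* lies above that band.

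Genes that work with or under the forkhead factors were read from lists written for this purpose. Earlier results of these data were known when the lists were chosen, so their counts are a description and not a test. They stand beside the shares over all genes given above, 4.87% called by DESeq2 and 10.4% at an unadjusted p under 0.05 in edgeR. Of 13 transcription factors that act with Foxa in endoderm, edgeR called 0, with 2 higher and 1 lower at an unadjusted p under 0.05, and DESeq2 called 2, both higher in KO. The list had a median of -0.08 on the log2 scale. *Gata6*, needed with *Gata4* for pancreas formation, was at 10.4, 18.7 and 11.8 CPM in WT and at 42.8, 29.8 and 30.4 CPM in KO. All KO libraries exceeded all WT libraries, and the log2 fold change was 1.33 (standard error 0.26, edgeR adjusted p = 0.132, DESeq2 adjusted p = 3.52e-05). *Gata4* averaged 214 ± 38.6 CPM over the WT libraries and 332 ± 9.88 CPM over those of KO, with a log2 fold change of 0.63 (edgeR adjusted p = 0.140, DESeq2 adjusted p = 0.000919). Both calls by DESeq2 held with GC offsets (adjusted p = 0.000163 for *Gata6* and 0.0212 for *Gata4*). The same fit also called *Onecut2*, a hepatic and pancreatic factor named here after its values were seen, as lower in KO. It was at -0.996 on the log2 scale (DESeq2 with GC offsets, adjusted p = 0.0164), and at -0.55 without the offsets (DESeq2, adjusted p = 0.270). Its richest 200 bases are 85.5% GC, a range where tested genes had a median of 0.053 in edgeR. The offsets thus moved *Onecut2* by more than that median, and the call rests on them.

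The Hedgehog pathway links endoderm, where Foxa factors act on *Shh*, to mesenchyme, where the signal acts on Foxf genes. Of its 16 listed genes 15 were tested, edgeR called 0, with 3 higher and 0 lower at an unadjusted p under 0.05, and DESeq2 called 3 of the 14 to which it gave an adjusted p, all higher in KO. The list had a median log2 fold change of 0.24. The genes called by DESeq2 were the ligands *Ihh* and *Shh* and the co-receptor *Gas1*. *Ihh* was at 29.04, 38.3 and 41.2 CPM in WT and at 95.2, 102 and 92.5 CPM in KO, a log2 fold change of 1.42 (standard error 0.14, edgeR adjusted p = 0.0904, DESeq2 adjusted p = 6.58e-15). *Shh* was at 0.941, 0.669 and 0.533 CPM in WT and at 3.65, 2.79 and 1.90 CPM in KO (DESeq2 log2 fold change 1.98, adjusted p = 0.00548). With GC offsets *Shh* was at 1.76 with an adjusted p of 0.0531, while *Ihh* and *Gas1* kept their calls (adjusted p = 1.84e-08 and 0.00065). *Gas1* was at 1.37 to 1.65 CPM in WT and at 16.3, 2.28 and 9.84 CPM in KO (DESeq2 adjusted p = 0.000218). The ligands separated the genotypes in all libraries, whereas *Foxf1*, a target of the pathway in gut mesenchyme, was high in 1 KO library only.

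Of 15 cell cycle genes that FOXM1 activates, edgeR and DESeq2 called 0, with 0 at an unadjusted p under 0.05 in edgeR and a median log2 fold change of -0.04. The smallest p-values belonged to *Plk1*, the mitotic kinase, at 0.17 (edgeR, adjusted p = 0.541), and *Cenpf*, a kinetochore gene, at -0.37 (edgeR, adjusted p = 0.638). Of 12 receptors and kinases upstream of Foxo factors, edgeR and DESeq2 called 0 and the median was -0.19. At an unadjusted p under 0.05 edgeR had 2 higher and 1 lower. *Insr*, the insulin receptor, averaged 21.5 ± 2.72 CPM in WT and 15.7 ± 1.79 in KO (edgeR, adjusted p = 0.361). *Akt1*, the kinase that phosphorylates Foxo proteins, averaged 45.6 ± 2.01 and 57.8 ± 9.62 CPM (edgeR log2 fold change 0.34, adjusted p = 0.438), and its log2 fold change turned to -0.085 with GC offsets. Of 10 Foxo targets 9 were tested, edgeR and DESeq2 called 0, 1 had an unadjusted p under 0.05 and the median was 0.01. *Bnip3*, a mitophagy gene, was at 48.9 ± 12.3 and 68.9 ± 5.58 CPM (edgeR, adjusted p = 0.391), and was called with GC offsets (DESeq2 log2 fold change 0.58, adjusted p = 0.0482). *Sesn1*, a stress-response gene, was at 144 ± 30.5 and 112 ± 9.49 CPM (edgeR, adjusted p = 0.482).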

How the data were processed

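Messenger RNA of sorted *Pdx1-Cre*; tdTomato cells was converted to cDNA with SMART-seq v4 and sequenced as 150 bp pairs in 3 WT and 3 KO libraries. Per the study's methods, the authors removed low-quality sequences, used STAR for alignment to GRCm39, and took counts with GenomicAlignments. They deposited raw counts per gene without normalization. The annotation, the handling of strand and the versions are not given in the sources used here.

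Genotypes were compared with edgeR 4.0.16 (R 4.3.3; filterByExpr, TMM, glmQLFit, glmQLFTest), with genotype as the term and Benjamini-Hochberg adjustment over 16353 genes. The standard error of a log2 fold change is its size over the square root of F. DESeq2 1.42.0 was an alternative. The scripts were tested on simulated data. Nothing in the labels says that libraries of a genotype came from separate embryos, so the p-values measure the spread between libraries. Libraries of a genotype differed by more than counting noise.

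Symbols were found for 94% of identifiers. Exon lengths, 3′UTRs and GC content came from GENCODE M21, built on GRCm38, so no coordinates are given. The plan named the seed of miR-302a-3p, and that of miR-302b-3p was used, because the sequence table consulted holds the latter.

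Members and lists were chosen with earlier results of these data known. Named were all Foxa, Foxf and Foxc genes, members called by either tool, the 6 with the smallest edgeR p, the 10 highest per kilobase, and in each pathway list the called genes and the 2 with the smallest p. Small RNA libraries were not analysed here.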

Additional observations from a re-analysis of the deposited data

How the results depend on the processing

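Over 12 alternatives, 11 of them planned, the 14 tested members named by rule gave 168 log2 fold changes, of which 152 kept their direction and side of the threshold, 4 kept their direction but had no adjusted p (*Foxf1* and *Foxo4* in DESeq2 with and without GC offsets), 11 reversed and 1, *Foxo1* under DESeq2 (1.35), passed the threshold. The number of all genes called moved most, from 0 in edgeR to 699 with DESeq2. DESeq2 with GC offsets called 461, fewer than without them, and edgeR called 264 without the filter on low counts and 0 to 217 when 1 library was left out, the 217 without WT replicate 2. Members called were 1 with DESeq2 and 0 otherwise. The members' median moved to -0.055 with GC offsets and lay between 0.12 and 0.22 with 1 library left out. *Foxa2* reversed to -0.055 with GC offsets and to -0.00025 with the replicate block. It also reversed to -0.024 with the first digit of the library code as covariate. That digit set WT replicates 1 and 2 and KO replicate 1 apart from WT replicate 3 and KO replicates 2 and 3. With GC offsets *Foxm1* reversed to -0.043, *Foxn3* to -0.24 and *Foxp4* to -0.13. With 1 library left out, *Foxa2* ran from -0.16 to 0.15, *Foxa3* from -0.10 to 0.16, *Foxo4* from -1.44 to -0.70, *Foxp4* from 0.11 to 0.43 and *Foxf1* from -0.49 (without KO replicate 1) to 3.97. The cause was not tested. Same-numbered replicates had deviations that correlated at -0.21, 0.25 and 0.08, so the numbers were not taken as pairs, and the replicate block called 0 members (median 0.16). The median log2 ratio of Foxa to mesenchymal members was 6.76, and 6.62 without division by length. Seed matches were in 10 members with either choice of 3′UTR, and GC-rich stretches in 29 at 75% and 35 at 70%. Low counts limit members outside the 17 tested.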
